A study of Cervus nippon with 40 samples.

Results

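The miRNAs described here are miR-192, miR-194, miR-215 and miR-122, a group known from liver and kidney, followed across 10 organs of Sika Deer. They were found by name: every listed bta-miR-192, bta-miR-194, bta-miR-215 and bta-miR-122, with any letter or arm suffix (bta is the cattle prefix of miRBase, the miRNA sequence catalogue). Of the 4 names, 3 were listed, each as 1 entry with no suffix, among 500 listed names, 337 of them known miRNAs. miR-122 was not listed in any of the 40 libraries, and no level of it is given here. The 3 listed miRNAs held 613335 of 52444509 miRNA reads, summed over all listed names.

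miRNAs are short RNAs that guide a silencing complex to target mRNAs through their 5′ end, the seed. miR-192 and miR-215 are close paralogs with the same seed, and miR-194 is cut from the same primary transcripts, 1 gene cluster making miR-192 with miR-194 and the other miR-215 with miR-194. These clusters are known from liver, kidney and gut epithelium, where hepatocyte nuclear factors control them and p53 can raise them, whereas miR-122 is known as the most abundant miRNA of hepatocytes.

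Small RNAs were sequenced from adrenal, antler, brain, heart, kidney, liver, lung, skeletal muscle, spleen and testes of male deer of the Shuangyang breed, with no treatment or genetic change. Deer of 1 year were called juvenile, those of 3 years adolescence, those of 5 years adult and those of 10 years aged. RNA of 3 deer was pooled for each library, and an organ had 1 library at each stage, so an organ had n = 4. The 12 deer were divided by stage, and all organ libraries of a stage came from the same 3 deer, so stage and deer cannot be told apart, and how far animals of like age differ was not measured. In whole organs, fewer cells of a type and less RNA per cell cannot be told apart either.

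Levels are in RPM, the reads of a miRNA per 1000000 miRNA reads of its library. Library totals are sums over all listed names, so names with equal reads, such as let-7b and miR-3596, each count in them. Libraries held 41866 to 7759033 miRNA reads (median 744715). The kidney libraries held 329393 to 856485 reads and the liver libraries 329913 to 698874. Intervals given beside single libraries are exact 95% intervals for the count of reads, and they cover counting error only.

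The organ labels were set against miRNAs known to mark each organ. In kidney, miR-196b and miR-196a had medians of 3036 and 1074 RPM and were higher than in the other 9 organs, whereas miR-10b had 16 reads, miR-10a 2 and miR-204 1 over the 4 kidney libraries. The brain libraries had the highest median of miR-124a (34538 RPM), and the muscle libraries that of miR-1 (918666 RPM). The adolescence brain had 2446 RPM of miR-124a, against at least 31967 RPM in the other brain libraries. Some markers were highest in another organ than the one they stood for: the muscle markers miR-133a (134296 against 21571 RPM) and miR-133b in heart, the spleen marker miR-142-5p in antler (127 against 81.0 RPM) and miR-142-3p in testes, and the lung marker miR-126-3p in kidney. For liver the defining marker miR-122 was not listed and miR-885 had 1 read in 1 library, so this marker list could not check the liver label.

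A set of 10 libraries stood apart, on the high side of a score, from the other libraries of their own organs. This was measured with the leading principal component of the variation within organs, computed from the tested miRNAs other than miR-192 and miR-215, which took 37.6% of that variation (the next component took 14.8%). The score was high, between 0.823 and 2.24 SD units, in the juvenile and adolescence libraries of kidney, adrenal and testes, the juvenile brain, the adolescence heart and lung, and the aged spleen. All other scores were 0.429 or lower, down to -2.05 in the adolescence brain. The set was cut at a score above 0.5, on the high side only. Scores are centred within organs, so the older kidney, adrenal and testes libraries lay apart on the low side, at -0.799 or lower. The miRNAs with the largest positive weights were miR-135b, miR-142-5p and miR-2285f, and those with the largest negative weights were miR-2898, miR-433 and miR-2478. let-7b, a member of the let-7 family of differentiation-linked miRNAs, was lower in the high-scoring libraries than in every other library of the same organ, in each of the 7 organs that had both (at most 70919 against at least 209045 RPM in kidney, and 51561 against at least 196868 RPM in spleen). No label names a batch that these libraries share. In kidney the high scores fell on the 2 younger stages, in spleen on the oldest stage, and in liver on none, where scores lay between -0.494 and 0.233. Model results for the members are also given without these libraries, and those by stage also with the score as a covariate, where these could be fitted. Without these libraries miR-215 has values but no test. The exact tests were run on all libraries of the organs compared.

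miR-192 was one of the most abundant listed miRNAs in liver and kidney and was present in every library. It had 612991 reads over the 40 libraries, and at least 27 reads in each. Liver held 300822 of these reads (49.1%) and kidney 259341 (42.3%), together 91.4%, although these organs supplied 8 of the 40 libraries.

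In liver the level of miR-192 was 187160 RPM in the juvenile library (81994 reads), 147600 RPM at adolescence (48695 reads), 164140 RPM in the adult library (64052 reads) and 151788 RPM in the aged library (106081 reads). The 4 liver libraries were close to each other, at 162672 ± 17771 RPM (SD, n = 4). miR-192 was 14.8% to 18.7% of all listed miRNA reads there. It ranked first among listed known miRNAs in the juvenile and adult libraries and at position 3 in the other 2. Above it in those were let-7b and miR-3596, with equal values (185325 RPM each at adolescence and 180007 RPM each in the aged library). miR-122 was not listed and so is not part of this base, and these shares, ranks and levels hold among listed names only.

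In kidney the level of miR-192 was 270874 RPM in the juvenile library (89237 reads), 248624 RPM at adolescence (91265 reads), 63924 RPM in the adult library (21056 reads) and 67465 RPM in the aged library (57783 reads). The kidney libraries thus formed a high pair and a low pair that did not overlap, with a mean of 162722 ± 112414 RPM (SD, n = 4). In the high pair miR-192 was the first-ranked known miRNA, at 27.1% and 24.9% of all miRNA reads, and in the low pair it ranked 5 and 4, at 6.39% and 6.75%. The first place there was taken by let-7b, at 209045 and 227420 RPM. Reads of let-7b and miR-3596 were equal in those libraries, so these names cannot be told apart.

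**Figure D1:**
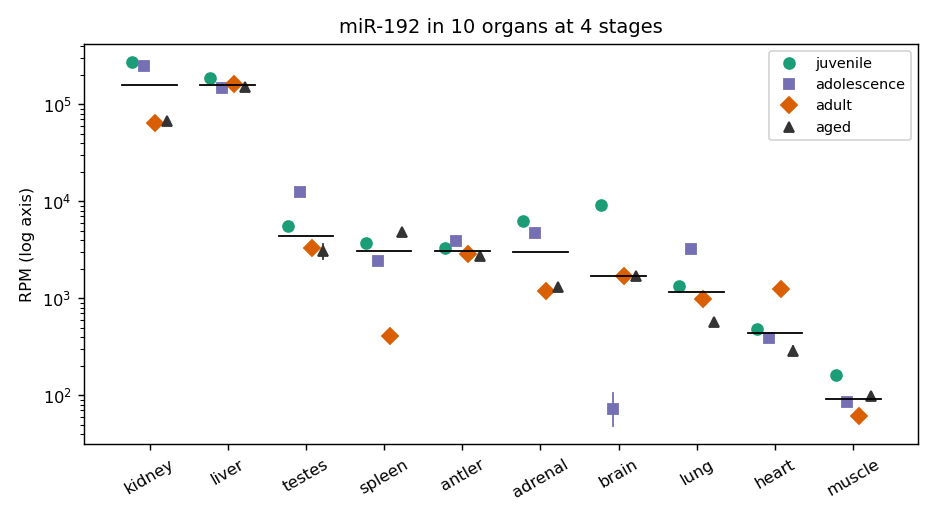
Level of miR-192 in RPM (log axis) in 10 organs ordered by median, with 1 point for each of the 4 stage libraries, vertical lines for exact 95% counting intervals (mostly smaller than the points) and horizontal lines for the organ medians. All 8 liver and kidney libraries lie at or above 63924 RPM and all 32 other libraries at or below 12420 RPM.

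In the other 8 organs the highest library was the adolescence testes, at 12420 RPM. The lowest liver library was 11.9 times and the lowest kidney library 5.15 times that level, so neither organ overlapped with any library of the 8 others. By median, kidney (158044 RPM) and liver (157964 RPM) were followed by testes (4399), spleen (3094), antler (3084), adrenal (3009), brain (1690), lung (1162), heart (438) and skeletal muscle (92.1 RPM). Between neighbours in that order, the 4 libraries were fully separated in RPM for liver over testes, with medians 35.9-fold apart, and for heart over muscle, 4.75-fold apart. The other neighbours overlapped. In muscle miR-1, a muscle miRNA, took most of the reads, and scaling by the trimmed mean of M values (TMM), which allows for such a dominant miRNA, put the muscle libraries at 664 to 3334 RPM in place of 61.1 to 164 and the heart libraries at 265 to 1914 RPM, so these organs overlapped on that scale.

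Liver and kidney were each compared with the mean of the other 8 organs by limma on log2(RPM + 1) after TMM scaling, over all 40 libraries with organ and stage in the model. A miRNA was called at an adjusted p below 0.01 and a log2 fold change above 1 in size, out of 124 tested. miR-192 was higher in liver by 5.70 on the log2 scale (SE 0.56, limma adjusted p = 4.45e-10) and higher in kidney by 5.24 (SE 0.56, limma adjusted p = 2.52e-09), in each case at 4 of 4 stages. For comparison, 9.68% of the tested miRNAs were called higher in liver and 12.1% in kidney, and miR-192 had the second-ranked rise in liver and the third in kidney. Without the 10 libraries that stood apart the differences were 6.45 in liver (limma adjusted p = 1.49e-12) and 5.27 in kidney (limma adjusted p = 1.23e-07).

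An exact permutation test moved the organ label within each stage, with no spread taken from other miRNAs. On RPM without TMM scaling the difference in log2(RPM + 1) was 7.01 ± 0.42 in liver and 6.69 ± 0.80 in kidney (SD over n = 4 stages, two-sided exact p = 0.000152 for each, the smallest that 6561 arrangements can give, Benjamini-Hochberg adjusted over 6 tests 0.000457). miR-192 exceeded all 8 other organs at 4 of 4 stages in both liver and kidney. The larger values than in the model came with the scaling: with total reads in place of TMM the median of all tested miRNAs moved to 1.20 in liver and 1.21 in kidney, and relative to that median miR-192 was higher by 5.81 and 5.48.

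Liver and kidney were not separated from each other in miR-192. The difference of liver minus kidney was 0.46 on the log2 scale (SE 0.75, limma adjusted p = 0.737), where 10.5% of tested miRNAs were called in either direction. Without the 10 libraries that stood apart it was 1.18 (limma adjusted p = 0.320). Without single replicates it ran from 0.059 (without the adult kidney) to 0.64 (without the adolescence liver). Liver was below kidney in RPM at the 2 younger stages and above it at the 2 older ones. The exact test of these 4 pairs gave p = 0.625, and no result of 4 pairs can pass 0.05 in that test.

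miR-215 was far rarer. It had 338 reads in all, in 26 of 40 libraries, and 10 or more reads in 10 libraries. Kidney held 174 of these reads (51.5%) and liver 80 (23.7%), together 75.1%. Over all reads of kidney there were 0.671 reads of miR-215 for each 1000 of miR-192, and 0.266 in liver. Both values pooled unlike libraries, which ran from 0.237 to 0.877 in kidney and from 0.041 to 0.439 in liver. Because miR-192 and miR-215 are near-identical, and how reads that match both were assigned is not given in the sources used here, the low count of miR-215 is uncertain in libraries rich in miR-192.

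In kidney miR-215 had 225 RPM in the juvenile library (74 reads, interval 176 to 282), 218 RPM at adolescence (80 reads, 173 to 271), 15.2 RPM in the adult library (5 reads, 4.93 to 35.4) and 17.5 RPM in the aged library (15 reads, 9.80 to 28.9). The high pair and the low pair were the same libraries as for miR-192. In liver it had 82.2 RPM (36 reads), 6.06 RPM (2 reads), 35.9 RPM (14 reads) and 40.1 RPM (28 reads) in stage order, so the adolescence liver was the lowest and no order by stage was seen. Kidney was above liver at the 2 younger stages and below it at the 2 older ones.

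**Figure D2:**
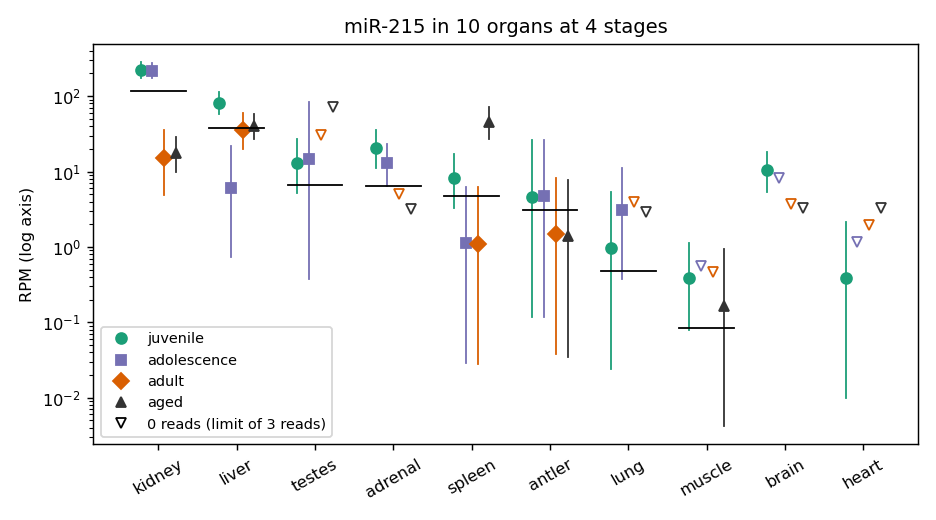
Level of miR-215 in RPM (log axis) in 10 organs ordered by median, with 1 point for each stage library, vertical lines for exact 95% counting intervals and horizontal lines for organ medians above 0. Open triangles mark libraries with 0 reads, drawn at the level that 3 reads would give, and the juvenile and adolescence kidney libraries (225 and 218 RPM) are the highest of the 40.

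Outside liver and kidney, 4 libraries had 10 or more reads of miR-215. The aged spleen had 45.5 RPM (19 reads), the juvenile and adolescence adrenal 20.7 and 12.9 RPM (13 and 11 reads), and the juvenile brain 10.3 RPM (12 reads). The aged spleen thus lay above 3 of the 4 liver libraries and both older kidneys. Every other library outside liver and kidney had 7 reads or fewer, and 14 libraries had 0, which is no sign of absence at these depths. In the order of medians, kidney (118 RPM) and liver (38.0 RPM) came first, followed by testes (6.53), adrenal (6.43), spleen (4.68) and antler (3.07), and no pair of neighbours was separated in all 4 libraries. The filter for testing asked for 10 reads in at least 4 libraries, and over all 40 libraries miR-215 met it in 4 libraries outside liver and kidney as well. Those 4 were among the 10 libraries that stood apart, and without these 10 only liver and kidney libraries had 10 or more reads of it.

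miR-215 was higher in liver than in the other 8 organs by 2.72 on the log2(RPM + 1) scale (SE 0.61, limma adjusted p = 7.43e-04), at 4 of 4 stages. In kidney the difference was 3.52, also at 4 of 4 stages, and it is given with no test, because the fall of miR-215 within these 4 kidney libraries had led to its choice. The pseudocount of 1 RPM understates such differences for a miRNA this rare. On RPM without TMM the difference was 3.62 ± 1.70 in liver (SD over n = 4 stages, exact permutation p = 0.000914, adjusted over 6 tests 0.00137) and 4.64 ± 1.32 in kidney. The 6 tests include that of miR-215 in kidney, which is not given, and its presence makes the adjusted value in liver smaller. It exceeded all 8 other organs at 3 stages in kidney and at 2 in liver.

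The call in liver depended on single libraries. It was lost without the juvenile, adult or aged liver library (limma adjusted p = 0.0207, 0.0137 and 0.0154), where the differences were 2.42, 2.35 and 2.35. Without the 10 libraries that stood apart, which leaves the adult and aged kidney, the difference was 2.87 in kidney and 3.48 in liver. These are given with no test, since miR-215 then passed the filter through liver and kidney alone. Liver minus kidney was -0.80 for miR-215, and 0.61 without those 10 libraries, both with no test.

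miR-194 was almost unread. It had 6 reads in 5 of 40 libraries, namely 1 in the juvenile and 2 in the aged kidney, 2 in adrenal and 1 in brain. None was seen in the 4 liver libraries, although miR-194 shares its transcripts with the other members. It failed the filter and was not tested, so of the 3 listed members 2 passed, among 124 miRNAs that passed of 305 known names read outside antler. How well the library preparation captures single miRNAs was not measured, so levels of different miRNAs are not compared as molecule numbers.

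**Figure D3:**
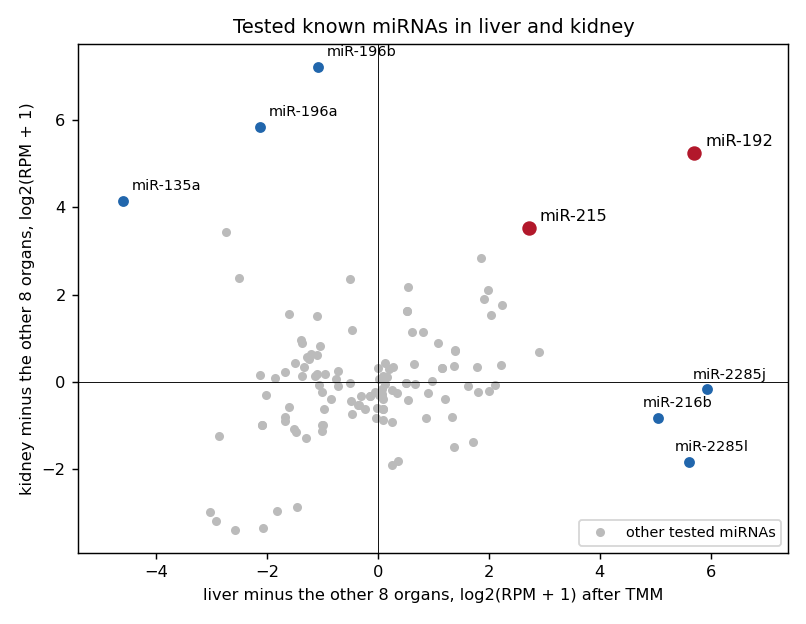
Difference from the mean of the other 8 organs in liver (horizontal axis) and kidney (vertical axis) for 124 tested miRNAs, on the log2(RPM + 1) scale after TMM. miR-192 and miR-215 (red) lie at the upper right, high in both organs, while the 6 other labelled miRNAs (blue), those with the largest rises in one organ, are low or near 0 in the other.

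The other miRNAs with the largest rises at all 4 stages differed between the organs. In liver they were miR-2285j (5.93) and miR-2285l (5.60), members of a large family named in cattle, with miR-192 between them. In kidney they were miR-196b (7.21) and miR-196a (5.84), which lie in the HOX gene clusters, followed by miR-192. The rises are log2 fold changes against the other 8 organs, and all passed the limma test.

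Over the 40 libraries, the miRNA most like miR-192 was miR-215 (Pearson r = 0.82 of log2 values), followed by miR-2285j (0.59) and miR-152 (0.50, equal in reads to miR-2957). The miRNAs most like miR-215 were miR-192 (0.82), miR-152 and miR-2957 (0.56 each). The points share 10 organs, 4 groups of deer and the scaling. How reads that match both miR-192 and miR-215 were assigned is not given, so likeness of these members and shared reads cannot be told apart. Without the 4 kidney libraries, whose miR-215 values had led to its choice, r between miR-192 and miR-215 was 0.76 over 36 libraries, and 0.68 with each organ centred on its mean.

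A list of 34 miRNAs known from liver, from renal epithelium or as p53-responsive was set beside them. Of these, 7 had no listed name, the others gave 28 names, and 11 were tested. In kidney 5 of 11 were called higher and 0 lower, with a median log2 difference of 1.77 against -0.06 over all tested miRNAs (12.1% of all were called higher and 6.45% lower). Without the 10 libraries that stood apart 4 of 10 were called higher and 0 lower, where 9 of all 114 tested miRNAs were called higher and 6 lower. The largest were miR-196b and miR-196a, then miR-30f (2.84, SE 0.50, limma adjusted p = 3.59e-05), of the miR-30 family known from kidney epithelium. Both other calls were also of that family, miR-30b-5p (2.36) and miR-30a-5p (2.18).

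In liver 2 of the 11 were called higher and 1 lower, with a median of 0.08 against -0.03 over all (9.68% of all were called higher and 12.1% lower). Without those libraries 3 of 10 were called higher and 1 lower, where 20 of all 114 tested miRNAs were called higher and 20 lower. miR-193b was higher by 2.24 (SE 0.56, limma adjusted p = 0.00208) and miR-30f by 1.86 (SE 0.50, limma adjusted p = 0.00404), while miR-196a was lower, at -2.13 (SE 0.53, limma adjusted p = 0.00215). miR-30f was thus called higher in both liver and kidney, as miR-192 was. Between liver and kidney 3 of 11 were called, all lower in liver: miR-196b (-8.29), miR-196a (-7.97) and miR-30b-5p (-2.87). Of all tested miRNAs 6.45% were called lower in liver than in kidney and 4.03% higher. Without those libraries 2 of 10 were called, also lower in liver, where 12 of all 114 tested miRNAs were called lower and 3 higher.

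The fall of miR-215 with stage in kidney had led to its choice, so it is described without a test. Taking the 2 younger libraries and the 2 older ones together, kidney had 154 reads at 221 RPM against 20 reads at 16.9 RPM, a ratio of 13.1 (exact 95% interval 8.20 to 22.1, counting error only). Within the pairs the ratio of juvenile to adolescence was 1.03 (0.741 to 1.43), and that of adult to aged 0.867 (0.246 to 2.51). The step seen between adolescence and adult had a ratio of 14.4 (5.90 to 45.4). These intervals describe counting error and are no test.

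Part of that ratio depended on the base it was counted on. The TMM factors of the kidney libraries were 3.02, 3.37, 1.84 and 1.40 in stage order, and after scaling miR-215 stood at 74.3, 64.6, 8.27 and 12.5 RPM, a ratio of 6.67 between the summed pairs against 13.5 for plain RPM. These factors depended on the library that TMM took as its reference, here the aged brain: with the juvenile antler they were 1.96, 2.37, 2.39 and 1.81, and the ratio was 12.9. With miR-192 taken out of the total, the levels were 308, 290, 16.2 and 18.8 RPM, a ratio of 17.1. The totals also hold both let-7b and miR-3596, each at 70919 RPM at adolescence, 209045 RPM in the adult and 227420 RPM in the aged kidney. If these are the same reads, they enlarge the base more in the older kidneys, and a total that counts them once was not tried. miR-215 also fell against miR-192 itself, from 0.83 (0.651 to 1.04) and 0.88 (0.695 to 1.09) reads per 1000 of miR-192 in the younger kidneys to 0.237 (0.0771 to 0.554) and 0.260 (0.145 to 0.428) in the older ones.

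**Figure D4:**
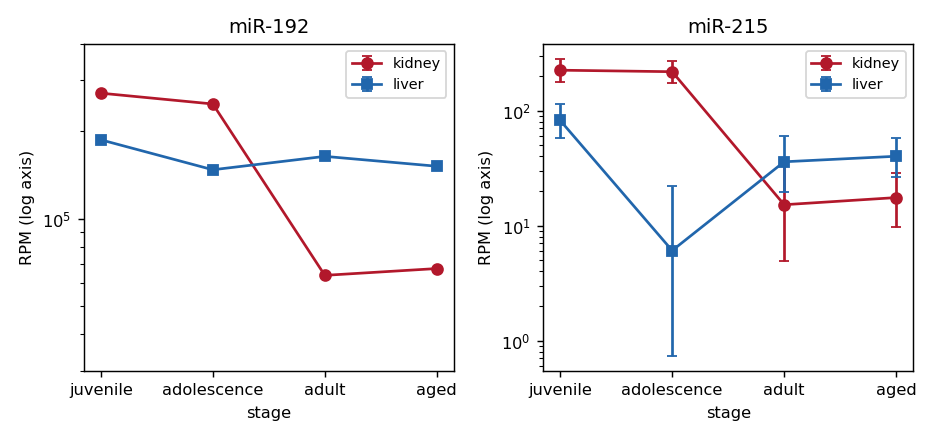
miR-192 (left) and miR-215 (right) in RPM (log axes with different ranges) in the kidney and liver library of each stage, with exact 95% counting intervals. Lines join libraries from different deer, and the kidney drops between adolescence and adult for both miRNAs while the younger and older liver libraries overlap.

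miR-192 showed the same step in kidney, with a pooled ratio of 3.90 (3.87 to 3.93) in RPM. After TMM scaling its kidney levels were 89584, 73693, 34814 and 48324 RPM, a ratio of 1.96, and with the juvenile antler as reference the ratio was 3.79. In the limma model of organ by maturity, older minus younger kidney libraries was -0.99 (SE 1.14, adjusted p = 0.659), which did not pass the test. The median of all tested miRNAs was 0.58 in that comparison, so relative to it miR-192 was lower by 1.57 (-1.57). With total reads in place of TMM the difference was -1.98 and the median -0.23, and with the juvenile antler as TMM reference they were -1.93 (SE 1.15, limma adjusted p = 0.393) and -0.17. Without single kidney libraries the difference ran from -2.17 to -1.69, and in all 4 of these fits TMM took the juvenile antler as its reference. DESeq2 gave -2.02 (adjusted p = 0.159). limma called 0% of the tested miRNAs there, with 30 at an unadjusted p below 0.05, and edgeR and DESeq2 on recovered reads also called 0, with 31 and 32.

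In liver the younger and older libraries overlapped in RPM for both members. The younger to older ratio in RPM was 1.09 (1.08 to 1.10) for miR-192 and 1.28 (0.805 to 2.04) for miR-215. The latter pooled unlike libraries: the juvenile liver was the highest of the 4 and the adolescence liver, 13.6-fold lower (3.49 to 116), was the lowest, with 2 reads. The limma differences of older minus younger were -0.01 (SE 1.14) and 0.63 (SE 1.17), both with an adjusted p of 1. With the juvenile antler as TMM reference they were -0.62 and 0.12, where the median of all tested miRNAs was -0.37. With the component score as a covariate they were -0.24 (SE 0.82) and 0.49 (SE 1.06). Here too limma called 0% of the tested miRNAs, with 0 at an unadjusted p below 0.05, and edgeR and DESeq2 called 0, each with 1 at an unadjusted p below 0.05. Whether the step in kidney differed from that in liver was not tested.

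Other organs also differed between the younger and older libraries. For miR-192 the pooled younger to older ratio in RPM was 4.28 in adrenal, 2.78 in lung and 1.96 in testes, and 0.487 in heart. The value in heart rested on the adult library (1264 RPM), since the aged one (288 RPM) was below both younger ones (488 and 388 RPM). After TMM scaling the hearts stood at 1730, 1055, 1914 and 265 RPM in stage order, so the younger hearts were not lower as a group on that scale. The ratio of 4.09 in brain rested on the juvenile library (9093 RPM), since the adolescence library (73.3 RPM) was below both older ones (1695 and 1685 RPM). In spleen, with a ratio of 1.70, the aged library was the highest (4842 RPM) and the adult library the lowest (408 RPM). For miR-215 the reads outside kidney were 99 at the younger and 65 at the older stages. Adrenal had 24 younger reads and 0 older ones. The exact interval of its younger to older ratio had a lower limit of 6.23 (counting error only).

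In brain miR-215 had 12 younger reads, all from the juvenile library, and 0 older ones. In spleen the order was turned, with 8 younger reads at 4.60 RPM and 20 older ones at 15.1 RPM, a ratio of 0.304 (0.116 to 0.721), and 19 of the 20 came from the aged library. Over the 9 organs other than kidney, older minus younger was -0.84 for miR-192 (SE 0.38, limma adjusted p = 0.134) and -1.11 for miR-215 (SE 0.39, limma adjusted p = 0.0564), and neither passed. These fits take the 36 libraries as independent, although the organs of a stage share their 3 deer and each side has only 2 pools of deer, so their p-values may be too small. For miR-215 the size depended on the method, at -0.24 with 10 RPM as the pseudocount (limma adjusted p = 0.350) and -2.75 with edgeR (adjusted p = 0.0104). For miR-192 it was -0.49 without the juvenile brain (limma adjusted p = 0.209), and -1.19 without the adolescence brain (limma adjusted p = 0.00226), which passed. DESeq2 called miR-192 (-1.02, adjusted p = 0.00694) and miR-215 (-2.20, adjusted p = 0.00561), also taking libraries of the same deer as independent. With the component score as a covariate in limma the differences were -0.44 for miR-192 and -0.87 for miR-215 (limma adjusted p = 0.289 and 0.0768). Without the 10 libraries, over the 7 organs that kept libraries of both ages, they were -0.05 for miR-192 (limma adjusted p = 0.907) and -0.40 for miR-215, the latter with no test for the reason given above. The share of tested miRNAs called there was 4.03%. Of the 11 tested miRNAs of the liver, kidney and p53 list, limma called 0 in this comparison and 0 by stage in kidney or liver, with medians of 0.32, 1.03 and 0.57 against -0.03, 0.58 and 0.07 over all tested miRNAs.

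The members moved with the component on which the 10 libraries stood apart. Within organs, its correlation with miR-192 was 0.64 and with miR-215 also 0.64 over 40 libraries, and 0.64 and 0.59 over the 36 libraries without kidney. The libraries share organ means, deer and scaling, and 39 other miRNAs correlated more strongly in size than miR-192 did. miR-192 was above its organ mean in 10 of the 10 high-scoring libraries and in 13 of the other 30. Centring sets the libraries of an organ against each other, so these counts are a description and no test. For miR-215 no such count is given, because it would include the kidney libraries that had led to its choice.

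**Figure D5:**
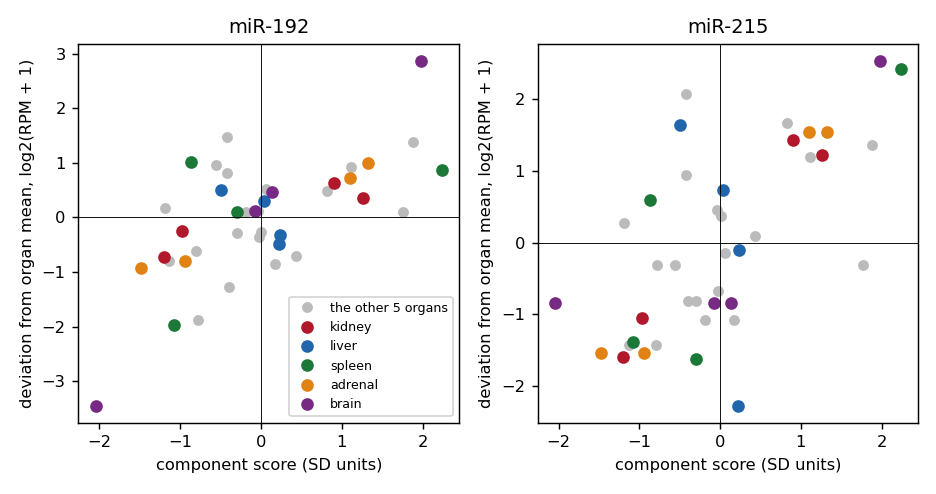
Deviation of miR-192 (left) and miR-215 (right) from its organ mean on the log2(RPM + 1) scale after TMM, against the score of each of 40 libraries on the leading within-organ component of the other tested miRNAs. The 2 younger kidney libraries (red, scores 0.902 and 1.27) lie at the right with the juvenile brain and the aged spleen, and the 2 older ones (-1.20 and -0.972) at the left.

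With the component score as a covariate in the model, older minus younger kidney changed from -0.99 to 0.84 for miR-192 (SE 0.90, limma adjusted p = 0.700). As a description, the value for miR-215 was -2.65 without and -1.54 with the score. With the juvenile antler as TMM reference the change for miR-192 was from -1.93 to 0.37 (SE 0.69, limma adjusted p = 0.864), and the values for miR-215 were -3.54 and -2.12, on a score that correlated with the first by 0.991 and was high in the same 10 libraries. In kidney the score and the stages coincide, so the score and stage cannot be told apart there. The kidney markers miR-196a, miR-196b, miR-10a, miR-10b and miR-204 summed to 4969, 3890, 3036 and 6235 RPM in stage order, with miR-196b the most abundant in each (3378, 2694, 2298 and 5272 RPM). miR-196a was higher in both younger libraries, as the members were (1575, 1196, 723 and 953 RPM), while miR-204 was at 0 reads in all but the aged library and miR-10a at 0 in both younger ones. Of the muscle markers, miR-1 was higher in both younger kidneys, as the members were, at 11626, 11221, 3157 and 1345 RPM, whereas miR-133a ran the other way, at 261, 804, 1123 and 939 RPM. Higher in both younger kidneys was also miR-142-5p, a miRNA of blood cells, at 91.1, 142, 15.2 and 15.2 RPM, whereas miR-150, of lymphocytes, was lower there (6.07, 68.1, 115 and 130 RPM). Their part in the result was not tested.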

How the data were processed

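Small RNA was sequenced from 40 libraries of 10 organs at 4 stages, each a pool of 3 deer. The authors trimmed adapters, removed other RNA classes, matched reads to miRBase and predicted further miRNAs, and they deposited RPM values, in which the reads of each miRNA are divided by all miRNA reads of the library. Genome build and treatment of reads that match several miRNAs are not given in the sources used here. The submitters' processing notes name CASAVA, Bowtie and bcl2fastq 1.8.4. Dividing by the value of 1 read gave whole reads for 7982 of 7982 entries (100%, tolerance 0.01), and these recovered reads served for counts and intervals. A miRNA with no entry was taken as 0 reads. The antler entry miR-148c was treated as miR-2957.

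A count model had been set for the case of counts. As the values are RPM, limma 3.58.1 (trend) in R 4.3.3 was fitted to log2(RPM + 1) after TMM scaling (edgeR 4.0.16), with Benjamini-Hochberg adjustment over 124 known miRNAs that had at least 10 reads in at least 4 libraries. Organ comparisons had organ and stage as terms, and stage comparisons had 20 cells of organ and maturity. Exact permutation tests were two-sided. Because stage numbers mark the same deer in every organ, stage was a block in the organ comparisons. The stage comparisons have no term for deer. Deviations from organ means correlated by 0.145 on average between libraries of the same stage (180 pairs) and by -0.0463 between stages (540 pairs). The p-values measure spread between pooled libraries. Python 3.11.15 was used with scipy 1.17.1, numpy 2.4.6 and pandas 2.3.3, and the limma step was tested on simulated data.

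The members, lists and tests were chosen with earlier results of these data known. Named besides the members were the 3 miRNAs most like each, the 3 largest rises in liver and in kidney, and the 3 largest changes of the companion list. The miRNAs of the component, the other companions and the markers by kidney stage were named after their values were seen, and the component, the settings built on it and the other TMM reference were added then. Alternatives covered scaling, pseudocount, filter, edgeR, DESeq2 1.42.0, the block, antler and single libraries.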

Additional observations from a re-analysis of the deposited data

Results flagged for a closer look

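In 20 groups of 4 libraries (miR-192 and miR-215 in each of 10 organs), 3 had a library far from the others by the test of Dixon, and chance alone would give about 1 in 20. All were of miR-215. In brain and heart the other 3 libraries had 0 reads, so that any read would have met the limit, and the chance share does not apply to them. In brain the juvenile library had 10.3 RPM (12 reads). In heart the juvenile library had 0.387 RPM, which was 1 read. In spleen the aged library had 45.5 RPM (19 reads), while the other spleens had 7, 1 and 1 reads. The gap there was 0.839 of the range. With brain and heart set aside, spleen was the only flagged group left, about as many as chance alone would give. The juvenile brain (score 1.98) and the aged spleen (score 2.24) were among the 10 libraries that stood apart on the component, and the juvenile heart (-0.426) was not. In the aged spleen miR-215 stood at 9.40 reads per 1000 of miR-192 (exact 95% interval 5.65 to 14.7), against 0.464 to 2.70 in the other spleens, and miR-142-5p at 2849 RPM against 6.62 to 104 RPM. In the juvenile brain the kidney markers miR-196a and miR-196b had 2 and 0 reads.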

How the results depend on the processing

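The rises of miR-192 in liver and kidney kept direction and call under every alternative run (log2 5.30 to 7.01 and 4.98 to 6.69). Some of these could not move the rises by design: another read filter, no stage term, and the component score as a covariate left them at 5.70 and 5.24. The difference of miR-215 in kidney, given with no test, was 1.69 to 4.64. miR-215 in liver, not tested without the 10 libraries, ranged from 1.17 to 3.62. It lost its call without replicate 1, 3 or 4 of liver, at differences of 2.42, 2.35 and 2.35. The exact tests of miR-192, and that of miR-215 in liver, kept their side of 0.05 with TMM, 10 RPM or thinning to the smallest library. For miR-215 in liver thinning gave a weaker result (exact permutation p = 0.0265), with liver higher at 3 of 4 stages. Without the replicate block, miRNAs called numbered 22 in liver, 17 in kidney and 12 between them, and no call of a member changed.

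The number of called miRNAs moved more. In liver it was 27, with 57 on total reads (51 higher), 41 on total reads without miR-1, 43 with DESeq2, 48 with the component score (53 with the juvenile antler as TMM reference also), and 15 to 22 without single liver replicates (16 without replicate 1, 15 without replicate 2). In kidney it was 23, with 53 on total reads (50 higher), 15 without the 10 libraries and 15 to 20 without single kidney replicates (15 without replicate 1). Between liver and kidney it was 13, with 28 by DESeq2, 27 with the component score (33 with that reference also) and 8 without liver replicate 2. By stage in kidney 1 was called with no minimum of reads. In the 9 other organs it was 5, with 3 at 10 RPM, 12 by edgeR, 18 by DESeq2, 8 with the component score (10 with that reference also), 13 without the 10 libraries, and 3 to 13 without single replicates (brain 2 with 13, testes 2 with 10, testes 4 and spleen 4 with 9, lung 2 with 8, brain 4 and liver 1 with 3).

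By stage in those 9 organs, DESeq2 called miR-192 (-1.02, adjusted p = 0.00694) and miR-215 (-2.20, adjusted p = 0.00561), and limma called miR-192 without the adolescence brain (-1.19, adjusted p = 0.00226), which had 27 reads of it, whereas without the juvenile brain it was -0.49 (adjusted p = 0.209). miR-215 ran from -2.75 with edgeR (adjusted p = 0.0104) to -0.24 with 10 RPM (limma adjusted p = 0.350). All these fits take libraries of the same deer as independent, so their p-values may be too small. Values that never passed changed sign as follows. miR-215 between liver and kidney ran from -1.44 to 0.023 without single replicates (0.023 without liver replicate 2), and was 0.61 without the 10 libraries, with no test. miR-215 by stage in liver was -0.36 with edgeR, -0.29 with DESeq2, -0.072 with the score and that reference, and -1.32 to 2.03 without single replicates (-1.32 and -0.23 without liver replicates 2 and 4). miR-192 by stage in kidney was 0.84 with the component score (0.37 with that reference also). The cause of these changes was not tested. TMM took another reference library in 13 of the 40 fits without 1 library, the 4 without a kidney library among them, so those fits changed the scaling too. miR-215 could not be fitted with at least 50 reads in 4 libraries, and stages within kidney could not be fitted without the 10 libraries. At 338 reads, depth limits every statement on miR-215 outside kidney and liver.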
